A study of Homo sapiens with 8 samples.

Results

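MTFP1, an activation target of the transcription factor ZBTB48, was examined together with 9 genes that divide and join mitochondria, in H3K4me3 ChIP-seq peak lists of U2OS cells. The genes were chosen by name, and their peaks were taken within 3 kb on either side of the annotated MANE Select 5′ end. They were 10 of the 20033 protein-coding promoters measured. U2OS is a human osteosarcoma cell line. The series held 3 WT clones and 3 ZBTB48 KO clones, each library being 1 clone. It also held 2 WT inputs, labelled replicates 1 and 2, that were not analysed here. Every clone had received 250 U/ml IFNγ for 24 h, so no untreated state stands beside them. The study compared them to ask whether ZBTB48 is needed for H3K4me3 at promoters it binds.

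Mitochondria constantly divide and fuse. Division is carried out by the GTPase DRP1, the product of DNM1L, which is drawn to the outer membrane by the receptors FIS1, MFF, MIEF1 and MIEF2. The mitofusins MFN1 and MFN2 join outer membranes and OPA1 joins inner membranes. MTFP1 encodes an inner membrane protein that promotes division, and MTFR1 encodes a regulator of the same process. H3K4me3 marks the region around the 5′ end of active genes, where it usually extends from the promoter into the first part of the gene body.

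The study's own qPCR primers at the MTFP1 promoter fix where its assay of this site lies, so the promoter is shown with the amplified bases in capitals. The sequence is RefSeq's, GRCh38.p14, chr22:30425518-30425767, plus strand, and ends with the base before the 5′ end at 30425768.
MTFP1 promoter: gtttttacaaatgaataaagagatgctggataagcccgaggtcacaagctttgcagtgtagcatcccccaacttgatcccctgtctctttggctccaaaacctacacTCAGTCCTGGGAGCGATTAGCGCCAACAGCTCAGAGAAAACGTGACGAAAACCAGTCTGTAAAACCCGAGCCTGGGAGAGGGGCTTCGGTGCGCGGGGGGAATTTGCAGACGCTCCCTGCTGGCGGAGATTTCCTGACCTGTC
Forward primer: tcagtcctgggagcgattag
Reverse primer: cgaaggacaggtcaggaaat
The amplicon of 148 bases ran from 30425625 to 30425772. All 148 bases lay under a peak in the 3 WT libraries and in KO replicates 1 and 3, and 0 of them did in KO replicate 2. By ChIP-qPCR, the study found more H3K4me3 at the MTFP1 promoter in WT than in KO clones. A peak call does not measure that amount. RefSeq promoters matched 9 of the 10 genes. MTFP1's window of 300 bases, which runs 50 bases further than the sequence shown, was 57.0% G or C with 19 CpG, against a median of 58.7% and 14 CpG over 35116 promoters. The telomere repeat unit TTAGGG, which ZBTB48 also binds, was searched on both strands. It was found in 1 of the 9 windows, that of MIEF2, and in 9.05% of all promoters.

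The 6 lists were of 2 kinds, and this touches every value below. In WT replicates 1 and 2 the median covered length of a promoter, the number of bases under peaks within 3 kb on either side of the 5′ end, was 3274 and 3215 bp. It was 1955 bp in WT replicate 3 and between 1655 and 1912 bp in the 3 KO libraries. The median fold enrichment of a peak was 13.4 and 14.0 in WT replicates 1 and 2 and 4.19 in WT replicate 3. In the 3 KO libraries it was between 4.32 and 4.65. For this reason the main comparisons are also given as WT replicate 3 against the 3 KO libraries, whose lists resemble one another, although that comparison rests on 1 WT clone and has no test. COL1A1, SPARC and RUNX2, bone-lineage genes, were marked within 1 kb in all 6 libraries. PTPRC and CD3E, genes of blood cells, had none in any. The ZBTB48 promoter carried a peak in all 6 libraries, which is no check of the genotype because a mutated gene can keep its promoter mark.

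In all 6 libraries a peak was called no further than 1 kb from the 5′ end at each of the 10 genes, as at 65.1% of all promoters. At MTFP1 in KO replicate 2 this call rested on the last 16 bp of a peak that lay upstream of the gene. What differed was how much sequence the peaks covered, and at MTFP1 also on which side of the 5′ end the difference lay.

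MTFP1 (ENSG00000242114, chromosome 22, 30425623 to 30429054, plus strand) had 1 peak in each library. The peak covered 4309, 4195 and 4000 bp of the window in WT replicates 1 to 3, and 3090, 1805 and 3062 bp in KO replicates 1 to 3. Every WT value lay above every KO value, as at 50.8% of covered promoters. WT replicate 3 stood with the other WT clones here instead of with the KO clones that its list resembled. The means of the WT and KO clones were 4168 ± 156 and 2652 ± 734 bp (SD, n = 3 each). The difference of 1516 bp gave p = 0.1 by the two-sided exact permutation test, the smallest p that 3 against 3 allows, and 0.196 after Benjamini-Hochberg adjustment over 14422 covered promoters. No promoter can pass 0.05 in this design. With each list scaled by its median covered length the difference was 132 bp (p = 1, exact permutation test). Before scaling, a difference at least as large as the 1516 bp of MTFP1 was found at 12.7% of covered promoters.

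The positions of the edges showed where the MTFP1 peaks differed. Upstream, the peak began at −2830 in WT replicate 3 and at −2793, −2789 and −2807 in the KO clones, counted in bp from the 5′ end. These 4 upstream edges fell within 41 bp of each other. WT replicates 1 and 2 reached −3891 and −3530, beyond the window. Downstream, the peak ended at 1308, 1194 and 1169 in WT and at 296, −985 and 254 in KO. The 3 WT edges lay within 139 bp of each other, although the lists differ in kind, and no KO edge came near them. As a rank within its own list, the downstream edge stood at percentile 16.3, 12.1 and 45.8 in WT replicates 1 to 3. In KO replicates 1 to 3 it stood at 3.28, 1.37 and 3.95. The median downstream edge of a promoter was 2015, 1906 and 1213 bp in WT replicates 1 to 3, so the close positions differed in rank. Over the WT clones the downstream edge averaged 1224 ± 74.1 bp and over the KO clones −145 ± 728 bp (SD, n = 3 each), 1369 bp apart (p = 0.1, two-sided exact permutation test, adjusted p = 0.198 over 13399 promoters covered in every library). Without KO replicate 2, whose edge lay on the far side of the 5′ end, the difference was 949 bp.

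**Figure D1:**
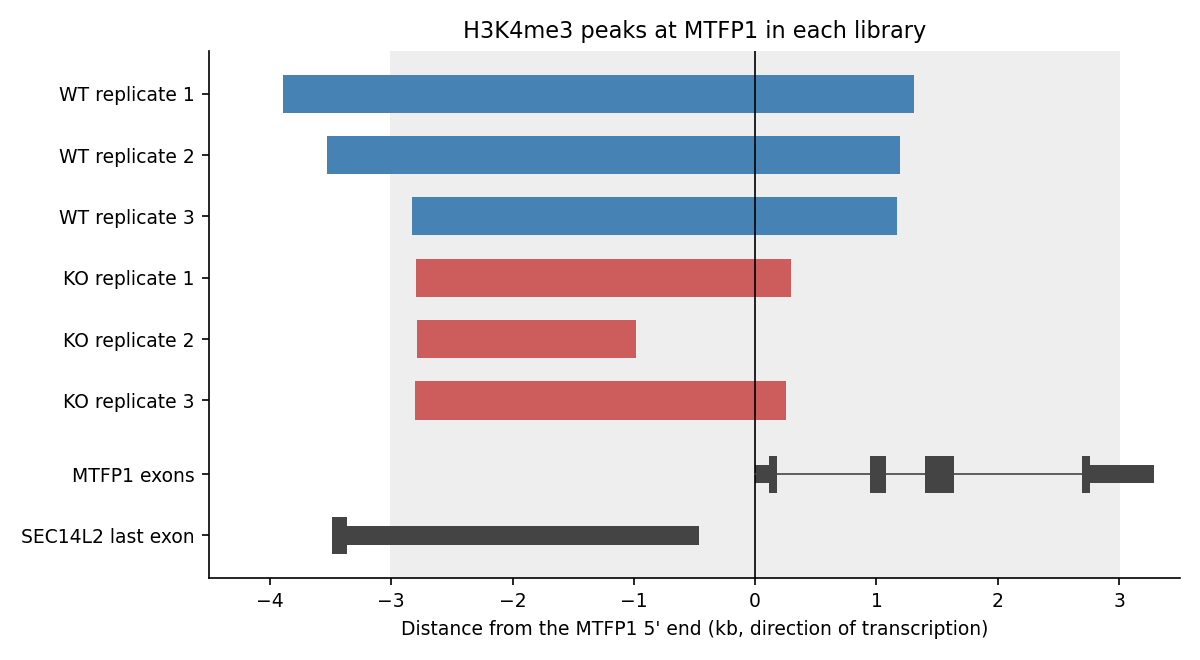
H3K4me3 peaks at MTFP1, 1 bar per library (WT blue, KO red), against distance from the 5′ end in kb in the direction of transcription. Grey shading is the window of 3 kb, the lower rows are MANE Select exons with coding parts drawn taller, and the WT bars end between 1169 and 1308 bp while the KO bars end at 296, −985 and 254 bp.

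The gene structure places these edges. The 3 WT peaks ended in intron 2 of MTFP1 and covered exons 1 and 2, which was 195 of the 498 coding bases. The peaks of KO replicates 1 and 3 ended in intron 1 and covered 67 coding bases. The peak of KO replicate 2 ended at 30424783, inside the last exon of SEC14L2, the gene upstream on the same strand, and covered no base of MTFP1. SEC14L2 encodes a lipid-binding protein. Its last exon, exon 12 (30422277 to 30425303), lay under the peak over 2366 of 3027 bases in WT replicate 3 and over 2329, 1805 and 2343 bases in the KO clones. All 6 peaks thus shared a stretch over the end of SEC14L2, and those of KO replicates 1 and 3 also shared the 5′ end and exon 1 of MTFP1 with WT. No other gene has an annotated 5′ end within 3 kb of that of MTFP1.

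A 5′ end covered in all 3 WT clones and left uncovered in at least 1 KO clone, as at MTFP1, was found at 3.61% of 12748 promoters. It was uncovered in KO replicate 2 only at 0.761%. MTFP1 was the only one of the 10 genes with this pattern, and the other 9 had the 5′ end covered in all 6 libraries.

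In the like lists, WT replicate 3 reached 873 bp further downstream of the MTFP1 5′ end than any KO clone. The peak of WT replicate 3 stood at percentile 3.60 of its list in fold enrichment. A fold threshold of 4 removed it, as it did those of KO replicates 1 and 3. A lead of at least 500 bp occurred at 2.8% of 13399 promoters, and one as large as that of MTFP1 at 110 of them, 0.821%. Upstream the lead of WT replicate 3 at MTFP1 was 23 bp. A downstream lead of at least 500 bp together with upstream edges within 100 bp, limits chosen after the values of MTFP1 had been seen, was found at 1.75% of promoters. In covered length the lead of WT replicate 3 was 910 bp, and 5.53% of promoters had a lead of at least 500 bp.

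Counting only the 1 kb on either side of the 5′ end removed most of the shared upstream stretch. All 2001 bp were covered in each WT clone, against 1297, 16 and 1255 bp in the KO clones. As a rank among the covered promoters of its own library, MTFP1 stood at percentile 71.8, 69.4 and 91.9 in WT and at 21.0, 0.0338 and 34.2 in KO. In all 3 WT clones the percentile is that of a fully covered window, shared with many other promoters. It therefore depends on how many windows were fully covered in each list. The WT clones averaged 77.7 ± 12.4 and the KO clones 18.4 ± 17.2 (SD, n = 3 each) (p = 0.1, two-sided exact permutation test). A difference at least as large as these 59.3 points was found at 28 of 13956 promoters, 0.201%. Over 3 kb the percentiles were 81.0, 80.6 and 98.2 in WT and 92.6, 53.4 and 96.7 in KO, and there the groups overlapped, with a difference of 5.67 points (p = 0.8, two-sided exact permutation test). The rank of MTFP1 thus separated the groups close to the 5′ end and not over the whole window.

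**Figure D2:**
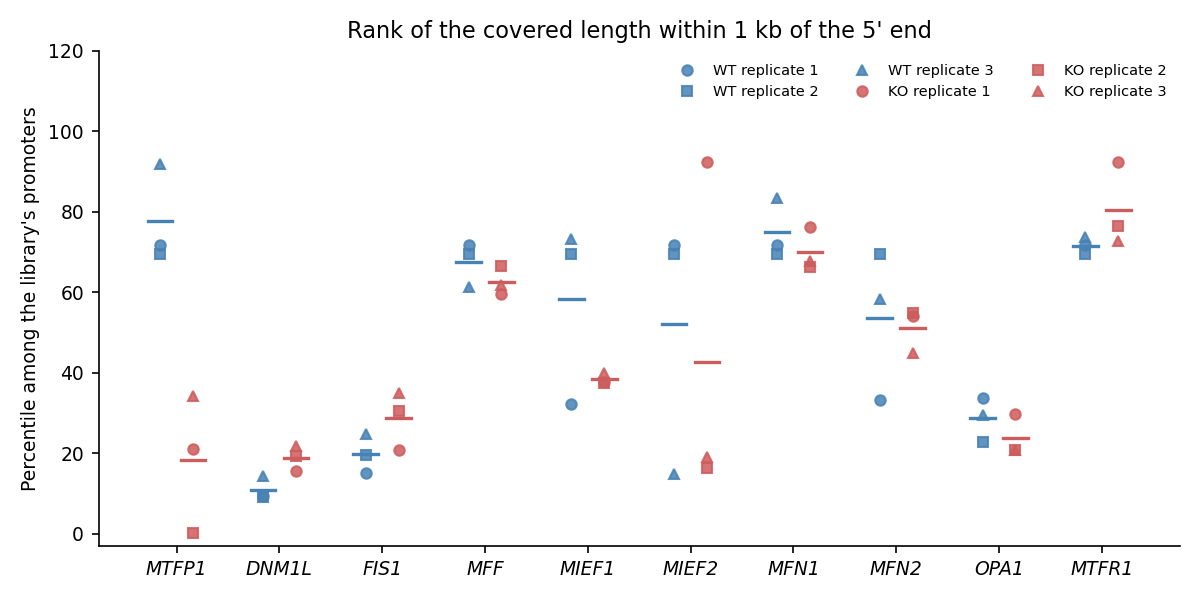
Rank of each gene's covered length within 1 kb of the 5′ end, as a percentile among the covered promoters of the same library, with 1 point per library and a bar at the group mean. MTFP1 is at 69.4 or above in WT and at 34.2 or below in KO, while at the other 9 genes the mean difference was between −8.93 and 19.9 points.

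The height of the MTFP1 peak can be read only within a list. Its fold enrichment stood at percentile 64.2 and 70.5 of all peaks in WT replicates 1 and 2, 3.60 in WT replicate 3, and 17.7, 47.7 and 31.4 in the KO clones. Its width was at percentile 92.1 or above in the 5 lists in which the peak crossed the 5′ end. MTFP1 therefore carried a wide peak of moderate or low average enrichment.

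DNM1L (ENSG00000087470, chromosome 12) had a strong peak of middling width. Its fold enrichment was at percentile 89.3 to 98.8 of each list and its width at percentile 40.7 to 65.2. The peaks covered 3010, 2493 and 1518 bp in WT and 1445, 1353 and 1099 bp in KO. The groups did not overlap, with WT higher, as at 50.8% of covered promoters. The lowest WT clone exceeded the highest KO clone by only 73 bp. The means were 2340 ± 758 bp and 1299 ± 179 bp (SD, n = 3 each).

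Of the DRP1 receptors, FIS1 (ENSG00000214253, chromosome 7), MFF (ENSG00000168958, chromosome 2) and MIEF1 (ENSG00000100335, chromosome 22) had non-overlapping groups. In each of them WT was higher, as at 50.8% of covered promoters. FIS1, a tail-anchored outer membrane protein, was covered over 2159, 2440 and 1864 bp in WT and 1556, 1534 and 1443 bp in KO. MFF, the main DRP1 receptor in many cells, was covered over 2908, 2828 and 2267 bp in WT and 1822, 1825 and 1694 bp in KO. WT replicate 3 exceeded every KO clone by 308 bp at FIS1 and by 442 bp at MFF. With each list scaled by its median covered length, the WT minus KO difference was −144 bp at FIS1 and −68.0 bp at MFF, so its direction depended on the scaling. At MFF the groups also overlapped when only peaks with a fold enrichment of at least 4 were used (132 bp, p = 1, exact permutation test). That limit removed the MFF peak of WT replicate 3, whose fold enrichment was 3.96. The 3 downstream edges of MFF in KO lay at 1124, 1136 and 1124, against 1821, 1742 and 1542 in WT. Downstream, WT replicate 3 led by 406 bp at MFF, next after MTFP1 among the 10 genes. MFF-DT, a long non-coding RNA on the other strand, starts 25 bp or more before the MFF 5′ end, and the MFF peak covered both starts.

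MIEF1, which encodes the adaptor MID51, was covered over 3048, 2881 and 2156 bp in WT and 1661, 1625 and 1398 bp in KO. Here the lead of WT replicate 3, 495 bp in all, lay upstream and not downstream. The peak began at −863 in WT replicate 3 and at −479, −367 and −334 in KO, a lead of 384 bp. The downstream lead was 35 bp. MIURF, a short coding gene on the same strand, starts 1941 bp downstream, and of the 6 peaks that of WT replicate 1 reached it. MTFP1 and MIEF1 thus differed in the side on which WT replicate 3 led, a description of 1 WT clone that was not tested.

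MIEF2 (ENSG00000177427, chromosome 17), which encodes the adaptor MID49, shares its window with FLII, a gene on the other strand that starts 1924 bp or more upstream. In WT replicates 1 and 2 and KO replicate 1 a single peak ran over both starts. In the other 3 libraries each start had its own peak. Coverage was 5303, 5697 and 2562 bp in WT and 4057, 2776 and 2393 bp in KO. The groups overlapped (p = 0.3, two-sided exact permutation test), and KO replicate 1 exceeded WT replicate 3 by 1495 bp. Where the MIEF2 peak stood alone it was 1215 bp wide in WT replicate 3, 1478 bp in KO replicate 2 and 1076 bp in KO replicate 3. Covered length at MIEF2 therefore depended on whether the gap to FLII had been joined.

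MTFR1 (ENSG00000066855, chromosome 8) was covered over 3090, 3291 and 1970 bp in WT and 2181, 1914 and 1788 bp in KO. The groups overlapped, since KO replicate 1 exceeded WT replicate 3 by 211 bp. In WT replicate 3 and the KO clones the peak ended between 1003 and 1105 bp downstream, so these 4 libraries differed little on that side.

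Among the fusion genes, MFN1 (ENSG00000171109, chromosome 3) was covered over 3353, 3399 and 2274 bp in WT and 2175, 1685 and 1637 bp in KO. MFN2 (ENSG00000116688, chromosome 1) was covered over 3099, 3416 and 1949 bp in WT and 1717, 1554 and 1389 bp in KO. Neither mitofusin had overlapping groups, with WT higher at both, as at 50.8% of covered promoters. WT replicate 3 led by 99 bp at MFN1 and 232 bp at MFN2. OPA1 (ENSG00000198836, chromosome 3) was covered over 3446, 2795 and 1685 bp in WT and 1953, 1407 and 1370 bp in KO. Its groups overlapped, and its upstream edge was at −402 in both WT replicate 3 and KO replicate 1. Start sites of ATP13A4, a gene on the other strand, and of a pseudogene lie 97 and 118 bp from that of OPA1, and a long non-coding RNA starts 317 bp from MFN2.

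**Figure D3:**
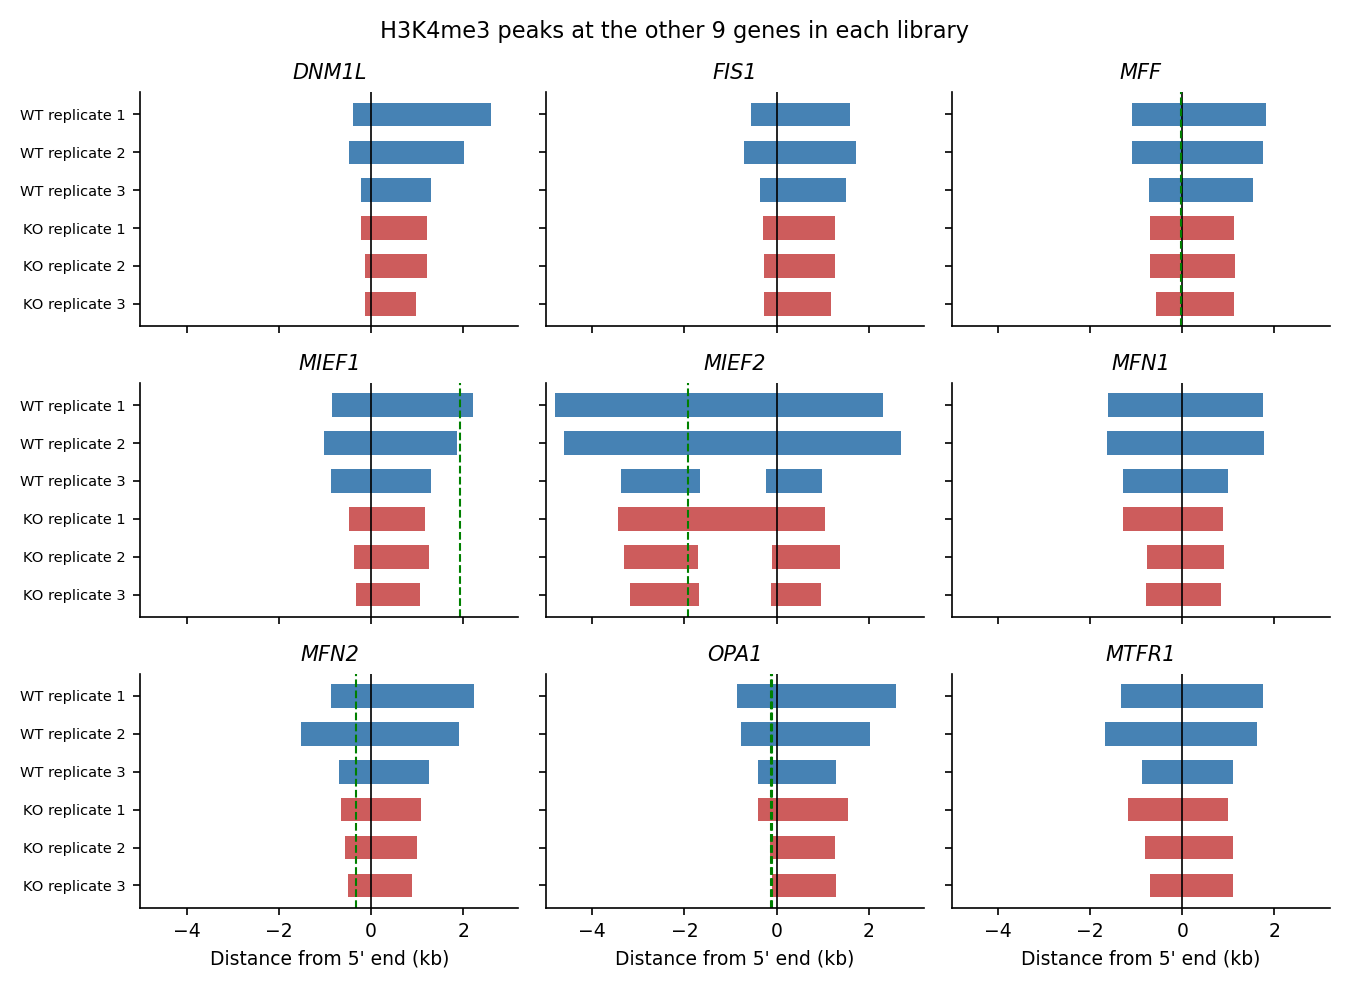
H3K4me3 peaks at the other 9 genes, 1 bar per library (WT blue, KO red), against distance from the 5′ end in kb. Dashed green lines are the nearest 5′ ends of other genes, the peaks at MIEF2 are split in 3 of the 6 libraries, and the 5′ end is covered in all 6 libraries at each gene.

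Over the 10 genes, mean covered length was higher in WT at all 10, by 643 to 1516 bp. The median difference was 1099.5 bp, against 965 bp over all covered promoters. At 7 of the 10 genes every WT clone exceeded every KO clone, as did 50.8% of covered promoters, and at 0 of the 10 was the order the opposite, which occurred at 0.111%. In these counts the group lay near the background. For WT replicate 3 against the KO clones, with no test, the median difference was 374 bp over the 10 genes and 163 bp over all covered promoters. The median lead of WT replicate 3 over the highest KO clone was 165.5 bp against 14 bp. Dividing each list by its own median covered length left 2 of the 10 genes with non-overlapping groups, against 5.99% of covered promoters. The 7 genes gave p = 0.1 and adjusted p = 0.196, OPA1 and MTFR1 p = 0.2 and adjusted p = 0.245, and MIEF2 adjusted p = 0.335 (two-sided exact permutation test). MIEF2 or MTFP1 was the widest of the 10 in each library, and FIS1 or DNM1L the narrowest.

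**Figure D4:**
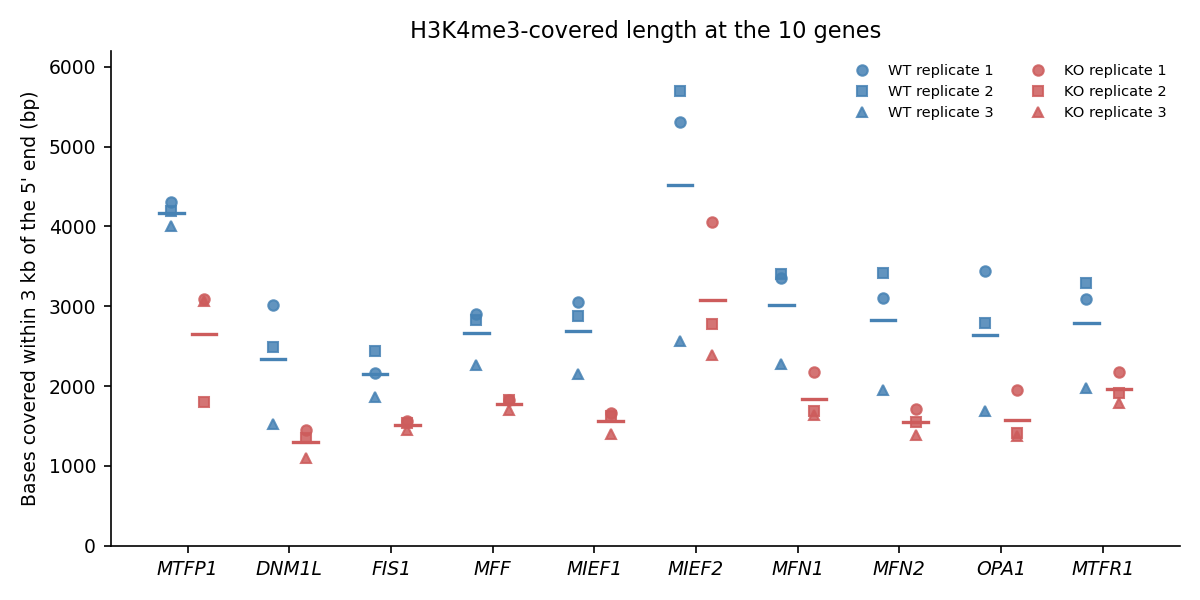
Bases under H3K4me3 peaks within 3 kb of the 5′ end of each gene, 1 point per library (WT blue, KO red, marker shape by replicate number) and a bar at the group mean. WT replicate 3, the blue triangle, is at 4000 bp at MTFP1, next to the other WT clones, and nearer to a KO clone than to another WT clone at 8 of the other 9 genes.

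By side, the downstream edge lay further out in every WT clone than in any KO clone at 7 of the 10 genes, with 50.4% of promoters doing so. The upstream edge did so at 5 of the 10, with 42.8% of promoters, and there the median lead of WT replicate 3 was 11.5 bp. The median difference downstream was 620 bp over the 10 genes and 549 bp over all promoters. Between WT replicate 3 and the KO clones, the downstream lead was 873 bp at MTFP1 and 406 bp or less at the other 9, with a median of 81 bp. At MIEF2, OPA1 and MTFR1 it was −400, −268 and −6 bp. MTFP1 was the only one of the 10 with a lead of at least 500 bp, a limit chosen after its values had been seen.

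**Figure D5:**
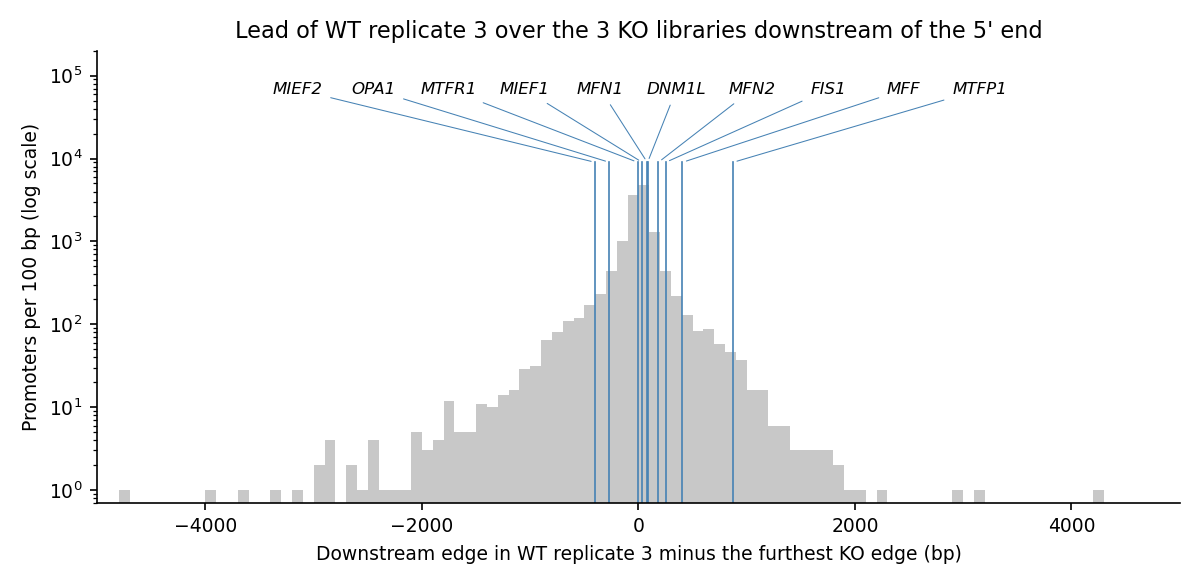
Number of promoters (log scale) by the lead of WT replicate 3 over the furthest KO clone in downstream edge, in bins of 100 bp, over 13399 promoters covered in every library. Lines mark the 10 genes, of which MTFP1 lies at 873 bp and the other 9 between −400 and 406 bp.

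The wider machinery of mitochondrial shape was read from a list of 21 genes. All 6 libraries had a peak called no further than 1 kb from the 5′ end at 20 of them. The exception was PLD6, a phospholipase of the outer membrane, with 349 bp covered in KO replicate 1 and nothing in the other 5 libraries. Every WT clone exceeded every KO clone in covered length at 12 of the 21 genes and at none was the order the opposite, with 50.8% and 0.111% of covered promoters doing so. The median difference was 958 bp, close to the 965 bp over all covered promoters, and the median lead of WT replicate 3 over the highest KO clone was 35 bp, against 14 bp. In covered length the list thus lay near the background. By role, the groups separated at 3 of 6 genes of fission and organelle shape, at 3 of 5 of the outer membrane ubiquitin system, at 1 of 3 of fusion, at 4 of 5 that process or stabilise OPA1, and at 1 of 2 of the cristae. These counts are too small to tell a role from the 50.8% over all promoters. Downstream, every WT clone lay beyond every KO clone at 16 of the 20 genes covered in every library, against 50.4% of promoters. The median downstream difference was 518 bp, against 549 bp over all promoters. WT replicate 3 lay beyond every KO clone downstream at 16 of the 20, against 6936 of 13399 promoters. Its median downstream lead was 54 bp, against 4 bp. Whether the list differs from the background on this side was not tested.

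The 2 genes with the largest differences in this list were not alike in the individual clones. INF2, a formin that builds actin at division sites, had the longest mean difference, 2083 bp, but was covered over 1953 bp in WT replicate 3 and over 1991, 1989 and 1712 bp in KO, so its difference came from WT replicates 1 and 2 at 5094 and 4895 bp. PHB2, a prohibitin of the inner membrane, was covered over 4491, 4710 and 2684 bp in WT and 2592, 2496 and 1902 bp in KO. In downstream edge, WT replicate 3 led by at least 500 bp at 0 of the 20 genes covered in every library. With MTFP1, such a lead was thus seen at 1 of the 10 genes and these 20 together, and 2.8% of promoters had one, so the count itself sets nothing apart.

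The promoters whose 6 covered lengths were closest to those of MTFP1, by root mean square difference, were H4C11 (357 bp), TICRR (399 bp), ZNF687 (404 bp), HNRNPLL (404 bp) and PITPNB (407 bp). Their likeness was in length and not always in side. The peaks of ZNF687, a zinc finger protein, ended downstream at 2327, 2472 and 2374 bp in WT and at 1376, 1216 and 1293 bp in KO. At H4C11, a histone H4 gene, coverage reached the downstream limit of the window in all 6 libraries.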

How the data were processed

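H3K4me3 ChIP-seq of 3 WT and 3 ZBTB48 KO U2OS clones was grouped by the labels. Per the labels and the study's methods, the authors used trimmomatic for trimming, Bowtie2 2.3.5.1 for alignment to GRCh38 and MACS2 2.1.1.2 for broad peaks in each library, after reads that were duplicates or mapped to several places had been discarded. Whether a given list used an input is not given in the sources used here. The deposited lists give a score (not used), a fold enrichment ratio and −log10 p and −log10 q, averaged over each peak. These were compared only within a list. Broad peaks join weaker stretches, so an edge marks where joining stopped. The lists hold no read counts: depth is unknown, no counting interval was computed, and a peak that is missing was not called, which is weaker than an absent mark.

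Gene positions came from GENCODE release 44, and no peak ran past a chromosome end of GRCh38. Positions are 1-based. Covered length counted the bases under any peak up to 3 kb from the 5′ end on either side, and edges were the outermost covered bases in that window. WT and KO were compared by an exact permutation test, two-sided, over the 20 ways to assign the clones, with Benjamini-Hochberg adjustment over all covered promoters. The p-values rest on the spread between single clones. As 2 of the 3 WT lists are of the wider kind and no KO list is, the kind of list enters that spread. It also enters the difference between WT and KO itself. Scripts were tested on simulated lists. Python 3.11.15 and numpy 2.4.6 were used, with matplotlib 3.10.9 for figures. Alternatives were a q threshold, a fold threshold, equal list lengths, windows of 1 and 5 kb, joined peaks, another 5′ end, scaling, a replicate block and leaving out each library. The genes and lists were chosen with earlier results of these data known, and the comparison of edges at MTFP1 under the alternatives was added after seeing the data. Named genes were the 10, the 2 largest and 2 smallest differences of the list of 21 and any of that list not called throughout, the 5 most like MTFP1, and neighbours starting within 3 kb. Of the genes so named, 1 of the list is not reported here, nor is 1 blood cell marker. MTFR1 had no match among the promoter sequences.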

Additional observations from a re-analysis of the deposited data

How the results depend on the processing

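At MTFP1 covered length was longer in WT under every alternative run, but scaling each list by its median covered length left 132 bp of the 1516 bp (p = 1, exact permutation test). At a fold threshold of 4, which removed the MTFP1 peak from WT replicate 3 and from KO replicates 1 and 3, the difference was 2233 bp (p = 0.4, exact permutation test), MFF was at 132 bp, MIEF2 at 3667 bp, and 5 of the 10 genes had non-overlapping groups (31.7% of promoters). Leaving out 1 library gave 1092 to 1734.5 bp. With scaling, the median difference over the 10 genes was 111 bp (−55.4 bp over all promoters), 2 of the 10 genes had non-overlapping groups (5.99% of promoters), and the difference was −144 bp at FIS1, −68.0 bp at MFF, −342 bp at MIEF2 and −257 bp at MTFR1. The median over the 10 genes was 293.5 bp in the 1 kb window and 374 bp for WT replicate 3 against KO, where MIEF2 was at −513 bp. The percentile of MTFP1 over 3 kb ranged from −8.09 to 13.6 points of difference when 1 library was left out. The downstream edge at MTFP1 lay further out in WT by 949 to 1589 bp without 1 library. It had no value at a fold threshold of 4, which removed the peak from some lists, and as a position it was not scaled. The deviations of same-numbered WT and KO clones had correlations of −0.00952, 0.0171 and 0.0932 over 14422 promoters. Those of clones with unlike numbers ran from −0.118 to 0.0787. With 3 clones per group these values cannot settle whether the replicate number pairs them. With the replicate block the difference at MTFP1 remained 1516 bp, with p = 0.25 by exact permutation within the pairs, the smallest the block allows. Depth could not be assessed from the lists.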
